A study of Mus musculus with 13 samples.

Results

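Primitive endoderm genes were followed in mouse embryonic stem cells: the transcription factors Gata4, Gata6, Sox17 and Sox7, the receptor Pdgfra, the endocytic adaptor Dab2, the laminin chains Lama1 and Lamb1, and the collagen IV chains Col4a1 and Col4a2. They were picked by gene symbol as a marker list of this lineage, with earlier results of these data known. All 10 were found among the 24470 genes of the count table. Each was followed through the messenger RNA counts of 5 libraries and through the accessible-chromatin peaks of 8 libraries.

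Primitive endoderm is the extraembryonic layer that lines the blastocyst cavity and later forms the visceral and parietal endoderm of the yolk sacs. FGF4 made by epiblast precursors acts through FGF receptors and ERK to turn on Gata6, which stands against Nanog in the choice between the lineages, and Pdgfra, Sox17, Gata4 and Sox7 are expressed as the layer matures. The differentiated cells take up material from their surroundings with the help of Dab2 and secrete the laminins and collagen IV of Reichert's membrane and other basement membranes. Embryonic stem cell cultures grown in serum are known to hold a few cells that express such genes.

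The study introduced a protocol that makes an ATAC library and an mRNA library from the same small number of E14 cells. E14 is an embryonic stem cell line derived from a 129/Ola mouse, and all libraries come from it. The cells were grown in GMEM medium with fetal bovine serum and leukemia inhibitory factor, and the labels name no feeder cells and no treatment. Cells were opened with a mild detergent and their accessible DNA was cut by the transposase Tn5, and polyadenylated RNA was then taken out with oligo-dT beads. Experiment 1 used 10000 and 20000 cells, and experiment 2, on another day, used 5000, 10000 and 20000 cells, which gave 5 mRNA and 5 ATAC libraries. For comparison, the established Omni-ATAC protocol was applied to 5000, 10000 and 50000 cells of the same line, with 1 library each and with no experiment number in the labels. The cells are 1 line in 1 medium, the labels do not say that libraries of 1 experiment came from separate cultures, and each experiment is 1 day. The p-values below therefore measure the spread between libraries of the same day, and day and culture cannot be told apart. In such bulk libraries, fewer expressing cells and less RNA per expressing cell cannot be told apart either.

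The mRNA libraries held 13727122 to 20426252 counts, so that 3 counts, taken as the floor, equalled 0.147 to 0.219 CPM (counts scaled to the library total). Intervals on single libraries are 95% exact Poisson intervals, which reflect counting error alone, because duplicate PCR reads could not be told from separate molecules. The label was checked against the list of 10 embryonic stem cell markers, which summed to 3526 to 3681 CPM in every library. The 10 primitive endoderm genes together summed to 113 and 111 CPM in experiment 1 and to 64.1, 82.9 and 92.7 CPM in experiment 2 (here and below, experiment 1 is given in the order 10000 and 20000 cells, and experiment 2 in the order 5000, 10000 and 20000 cells). Without Lama1 and Lamb1 the other 8 summed to 32.3 and 27.3 CPM against 7.04, 9.09 and 9.94 CPM. The ATAC files are lists of peak positions with no height or score, the lists held 9097 to 95457 peaks, and the sequencing depth behind them is unknown.

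The promoter sequences that the results below return to are those of Dab2, the member with the lowest adjusted p between the experiments and 2 starts in RefSeq, and that of Lamb1, whose promoter peak begins in the shown stretch. They come from RefSeq (GRCm38.p6, the mm10 build), and 5 of the 10 genes had an entry in the promoter table used. Each is printed 5′ to 3′ on the + strand, the strand of both genes, and capitals mark the bases inside a peak of the low-input list from 20000 cells of experiment 2.
Dab2 upstream of its first start, chr15:6299539-6299788: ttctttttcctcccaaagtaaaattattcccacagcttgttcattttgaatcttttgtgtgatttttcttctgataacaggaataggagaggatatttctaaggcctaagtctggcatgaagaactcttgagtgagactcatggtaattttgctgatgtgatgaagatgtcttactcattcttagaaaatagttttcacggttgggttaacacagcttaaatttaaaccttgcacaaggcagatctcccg
Dab2 upstream of its internal start, chr15:6386498-6386747: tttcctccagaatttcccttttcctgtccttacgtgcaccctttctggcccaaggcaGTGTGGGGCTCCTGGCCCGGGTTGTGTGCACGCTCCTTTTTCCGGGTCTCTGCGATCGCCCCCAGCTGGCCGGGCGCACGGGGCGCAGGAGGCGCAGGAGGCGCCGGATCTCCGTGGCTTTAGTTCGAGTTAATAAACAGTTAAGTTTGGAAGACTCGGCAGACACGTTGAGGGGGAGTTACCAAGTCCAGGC
Lamb1 upstream of its start, chr12:31265043-31265145: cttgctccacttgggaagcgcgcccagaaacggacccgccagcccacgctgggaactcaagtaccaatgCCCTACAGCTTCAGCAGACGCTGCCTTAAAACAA
The stretch before the first Dab2 start had a GC content of 36.8% and 2 CpG dinucleotides, and no base of it lay in a peak. The stretch before the internal start had a GC content of 60.0% and 17 CpG, and 193 of its bases lay in that peak. Over all 32817 RefSeq promoters the median was 52.4% GC and 6 CpG in the same 250 bases.

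Experiment 2 was compared with experiment 1 to see how far the mRNA measurement repeated on another day. Dab2, Gata6 and Col4a1 passed the test as lower in experiment 2, and no member of the list passed as higher. The test was edgeR's quasi-likelihood test on the libraries from 10000 and 20000 cells (2 against 2), with Benjamini-Hochberg adjustment over 12523 tested genes and a threshold of 0.05. It called 3 of the 8 members that could be tested, against a background of 12.5% of all tested genes, 6.76% lower and 5.75% higher in experiment 2. The median log2 fold change (experiment 2 minus experiment 1) was -1.21 over the 8 tested members and 0.000997 over all tested genes. Gata6, Sox7, Pdgfra and Dab2 entered the test through experiment 1, where both libraries reached the count filter (0.657 CPM in 2 libraries), while in experiment 2 it was reached by 1 library for Sox7 and Dab2 and by 0 libraries for Gata6 and Pdgfra. For these 4 a difference was partly built into the selection, so the count and the median describe the list and are not a test of it. Gata4 and Sox17 did not pass the filter.

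**Figure D1:**
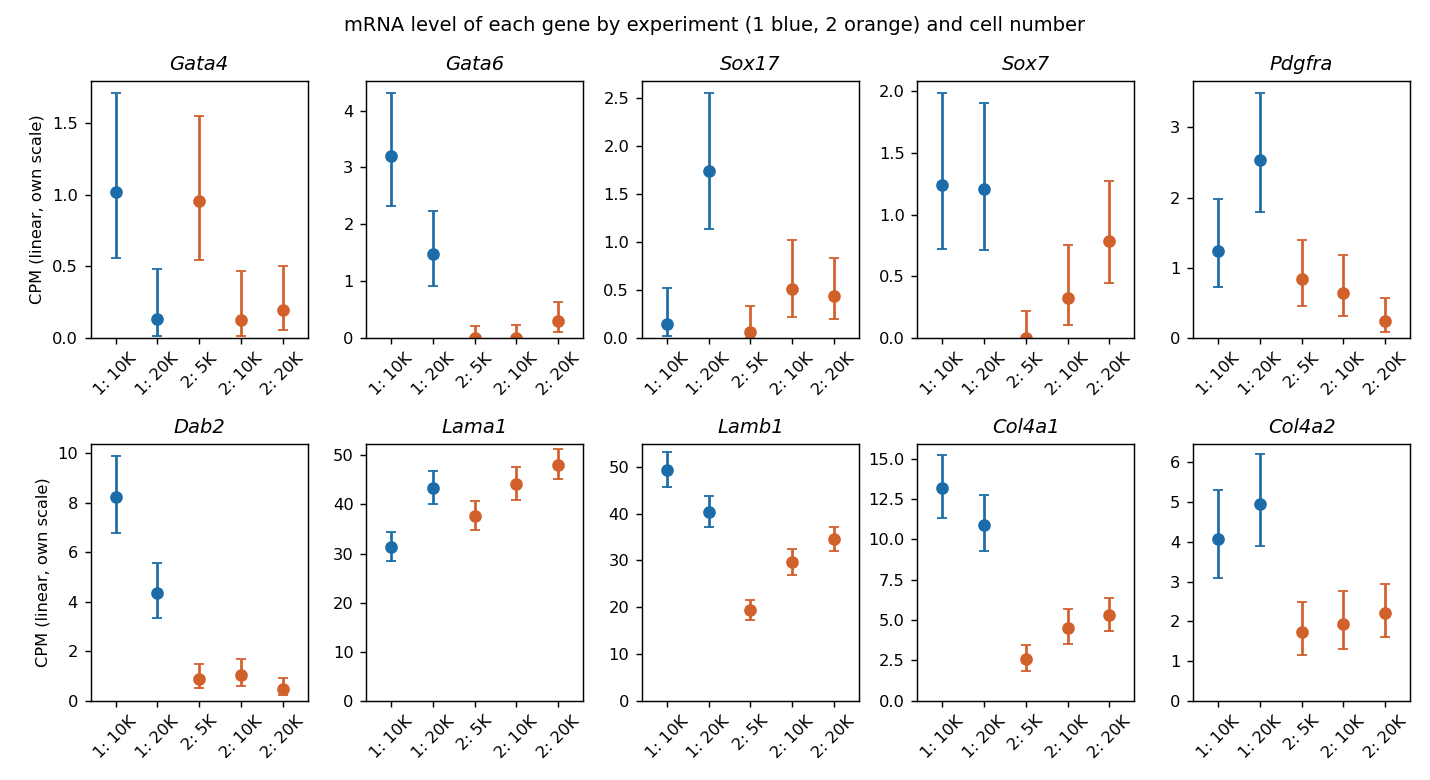
CPM of the 10 primitive endoderm genes in the 5 mRNA libraries, 1 panel per gene with its own linear scale from 0 (y axis) and the libraries on the x axis, experiment 1 in blue and experiment 2 in orange; bars are 95% exact Poisson intervals. The experiment 2 libraries lie below both experiment 1 libraries for 7 genes, whereas Gata4, Sox17 and Lama1 overlap.

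Among the transcription factors, Gata6, a GATA factor needed to form the lineage, had 44 and 22 counts in experiment 1 and 0, 0 and 6 counts in experiment 2. These are 3.21 and 1.47 CPM against 0, 0 and 0.294 CPM. The 20000-cell library was thus the one of experiment 2 with any Gata6 count, and it still lay below both libraries of experiment 1. Over the fitted libraries the means were 2.34 ± 1.23 and 0.147 ± 0.208 CPM (SD, n = 2 each), with a log2 fold change of -3.81 ± 1.01 (SE, edgeR's quasi-likelihood test, adjusted p = 0.0131). At 10000 cells the ratio of experiment 2 to experiment 1 was 0 for Gata6, with an exact upper limit of 0.0774, and at 20000 cells it was 0.200 (0.0662 to 0.507). The call for Gata6 rests on few counts: without the experiment 1 library from 10000 cells the change was -3.19 (edgeR adjusted p = 0.333), and without the experiment 2 library from 10000 cells it was -2.95 (edgeR adjusted p = 0.143). The size of the Gata6 change is loose as well: without the experiment 2 library from 20000 cells, where the remaining fitted library of experiment 2 had a count of 0, the fit gave -8.10 (edgeR adjusted p = 0.0188). Gata6 overlaps the antisense gene Gata6os by 58 bp, and the use of strand in counting is not stated, so reads there cannot be told apart. Gata6os itself had 30 and 7 counts against 11, 5 and 9, ranges that overlap.

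Sox7, an SRY-box factor of the SoxF group, had 17 and 18 counts (1.24 and 1.20 CPM) in experiment 1. In experiment 2 it had 0, 5 and 16 counts (0, 0.322 and 0.783 CPM). All 3 experiment 2 values lay below both of experiment 1, but they spread widely and the test did not pass (log2 fold change -1.11 ± 0.90, edgeR adjusted p = 0.486). The Sox7 change moved to -1.88 without the experiment 2 library from 20000 cells and to -0.63 without that from 10000 cells. Sox17, the SoxF factor that follows Gata6 in the lineage, had 2 and 26 counts in experiment 1 and 1, 8 and 9 counts in experiment 2. At 0.146 and 1.74 CPM the libraries of experiment 1 enclosed 2 of the 3 values of experiment 2 (0.0597, 0.516 and 0.441 CPM). The ratio of experiment 2 to experiment 1 for Sox17 was 3.54 at 10000 cells (0.707 to 34.2) and 0.253 at 20000 cells (0.104 to 0.558), on opposite sides of 1. Gata4, the GATA factor of the later endoderm, had 14 and 2 counts in experiment 1 and 16, 2 and 4 in experiment 2. Each experiment thus had 1 library near 1 CPM (1.02 and 0.955 CPM) and the rest at 0.129 to 0.196 CPM, around the level of 3 counts. When the filter was dropped so that Gata4 and Sox17 were tested, the adjusted p by edgeR was 0.747 and 0.764.

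Pdgfra, the receptor for PDGF ligands that is often used to sort primitive endoderm cells, had 17 and 38 counts in experiment 1 and 14, 10 and 5 in experiment 2. In CPM this was 1.24 and 2.54 against 0.835, 0.645 and 0.245. The groups did not overlap, and the distance was small at 10000 cells and large at 20000 cells, with ratios of 0.521 (0.213 to 1.20) and 0.0963 (0.0296 to 0.245). The log2 fold change of Pdgfra, -2.10 ± 0.87, did not pass (edgeR adjusted p = 0.118).

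Dab2, a clathrin adaptor that takes up receptors of the LDL receptor family and is a classical marker of endoderm differentiation, had 113 and 65 counts in experiment 1 and 15, 16 and 10 in experiment 2. These are 8.23 and 4.35 CPM against 0.895, 1.03 and 0.490 CPM. Every experiment 2 library, that from 5000 cells included, lay far below the lower library of experiment 1. Means of the fitted libraries were 6.29 ± 2.75 and 0.761 ± 0.383 CPM (SD, n = 2 each), 8.27-fold lower in experiment 2. The log2 fold change of Dab2 was -3.06 ± 0.53 (edgeR's quasi-likelihood test, adjusted p = 0.000264). Its ratios at 10000 cells, 0.125 (0.0693 to 0.213), and at 20000 cells, 0.113 (0.0516 to 0.220), lay within each other's intervals. Dab2 was called under every alternative in which it was tested, with changes between -3.65 and -2.53. Where 1 library was left out, for Dab2 and for the other genes, 1 experiment was left with a single library, which was assumed to vary like the libraries of the other.

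Lama1, the α1 chain of the laminin trimer laid down first in the embryo, had 430 and 649 counts in experiment 1 and 632, 685 and 983 in experiment 2, or 31.3 and 43.4 CPM against 37.7, 44.2 and 48.1 CPM. The 5000-cell value lies between the values of experiment 1. The ratio of experiment 2 to experiment 1 for Lama1 was 1.41 at 10000 cells and 1.11 at 20000 cells. The change in Lama1 was 0.30 ± 0.17 on the log2 scale and did not pass (edgeR adjusted p = 0.261), but without the experiment 1 library from 20000 cells it did (0.58, edgeR adjusted p = 0.0471). Without the experiment 1 library from 10000 cells the change in Lama1 was 0.09 (edgeR adjusted p = 0.892), and DESeq2 with all 4 libraries gave an adjusted p of 0.609.

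Lamb1, the β1 chain of the same trimer, had 677 and 604 counts in experiment 1 and 324, 459 and 707 in experiment 2, or 49.3 and 40.4 CPM against 19.3, 29.6 and 34.6 CPM. Its groups did not overlap, with the 5000-cell library lowest. Over the fitted libraries the log2 fold change of Lamb1, -0.48 ± 0.16, lay just short of the threshold (edgeR adjusted p = 0.0554). It passed when the 5000-cell library joined the fit (-0.65, edgeR adjusted p = 0.0198), when genes under a mean of 10 CPM were left out (-0.49, edgeR adjusted p = 0.0258), with cell number as a replicate block (-0.48, edgeR adjusted p = 0.0367) and without the experiment 1 library from 20000 cells (-0.60, edgeR adjusted p = 0.0296). It moved further from the threshold without the experiment 1 library from 10000 cells (-0.33, edgeR adjusted p = 0.414), without the experiment 2 library from 10000 or 20000 cells (-0.37 and -0.59, edgeR adjusted p = 0.359 and 0.0988) and by DESeq2 (-0.47, adjusted p = 0.210). Lama1 and Lamb1 thus had fitted changes of opposite sign, and the difference between them was not tested.

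Col4a1, the α1 chain of the collagen IV network of basement membranes, had 181 and 163 counts in experiment 1 and 43, 70 and 108 in experiment 2. In CPM this was 13.2 and 10.9 against 2.57, 4.51 and 5.29. All libraries of experiment 2 lay below those of experiment 1, the 5000-cell library lowest. Fitted means of Col4a1 were 12.0 ± 1.61 and 4.90 ± 0.547 CPM (SD, n = 2 each), and the log2 fold change was -1.29 ± 0.28 (edgeR's quasi-likelihood test, adjusted p = 0.00273). It was called under every alternative in which it was tested, with an adjusted p by edgeR or DESeq2 of 0.000227 to 0.0478.

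Col4a2, the partner chain, had 56 and 74 counts in experiment 1 and 29, 30 and 45 in experiment 2, or 4.08 and 4.95 CPM against 1.73, 1.93 and 2.20 CPM. The groups did not overlap and the ratio was alike at both cell numbers (0.474 and 0.445), but the change of -1.12 ± 0.45 did not pass (edgeR adjusted p = 0.106). Col4a1 and Col4a2 lie head to head on chromosome 8 and overlap by 22 bp at their starts. The chromosome as a whole moved the other way: its 410 genes that averaged 10 CPM or more had a median log2 fold change of 0.46, and 91.2% of them had a positive one. Relative to that median the changes of Col4a1 and Col4a2 were -1.75 and -1.58. Dab2 lies on chromosome 15, whose median was -0.26, and its change relative to that was -2.81.

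Over all 5 libraries, 7 of the 10 members had experiment 2 values wholly below those of experiment 1. All 7 were among the 8 tested members. Of these, Gata6, Sox7, Pdgfra and Dab2 entered the test through experiment 1, so their separation was partly built into the selection. The number separated describes the list and is not a test of it. Among all tested genes 23.9% were separated in this direction and 17.7% in the other, so separation by itself was common in these libraries. The 3 members whose ranges overlapped were Gata4, Sox17 and Lama1.

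**Figure D2:**
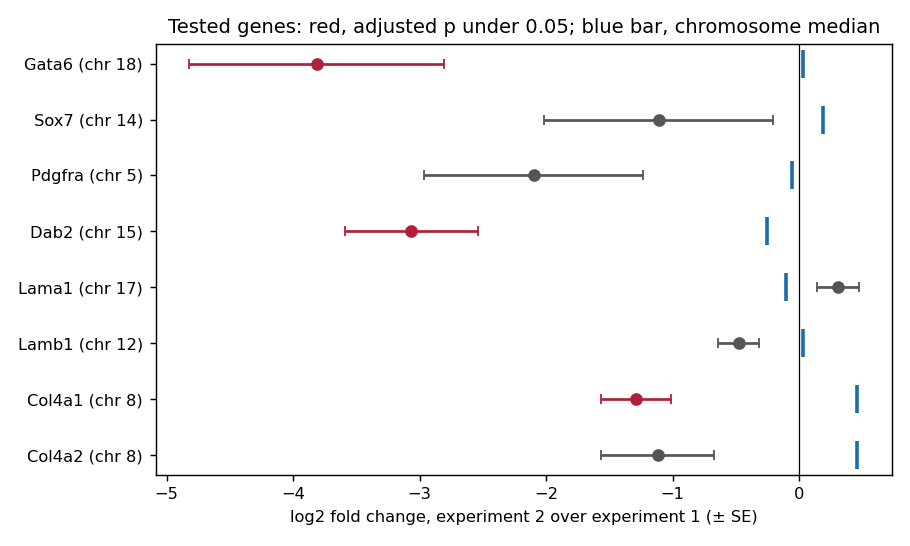
Log2 fold change of the 8 tested members, experiment 2 minus experiment 1 (points, with SE bars; 2 libraries per experiment), beside the median log2 fold change of genes of the same chromosome (blue bars). Red points, Gata6, Dab2 and Col4a1, have an edgeR adjusted p under 0.05, and the point of Lama1 lies above 0.

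Other genes of the same biology were read from lists written for this comparison. Partners of the laminins and collagen IV in the basement membrane (18 genes, 10 tested) had 0 genes higher and 1 lower, near the 12.5% called among all tested genes, with a median log2 fold change of -0.08. The called gene was Sparc, a collagen-binding matrix protein that parietal endoderm secretes. It had 89.7 and 96.2 CPM in experiment 1 and 52.3, 59.4 and 59.8 CPM in experiment 2 (log2 fold change -0.64 ± 0.13, edgeR's quasi-likelihood test, adjusted p = 0.00194). Lamc1, the γ1 chain that joins Lama1 and Lamb1 in the laminin trimer, did not pass (0.36 ± 0.18, edgeR adjusted p = 0.211).

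Receptors of the basement membrane (10 genes, 8 tested) had 2 genes higher and 1 lower, with a median of -0.21, where 5.75% of all tested genes were called higher and 6.76% lower. Itgb1, the integrin β1 chain that pairs with most laminin- and collagen-binding α chains, rose from 26.0 and 24.8 CPM to 35.7, 48.5 and 47.3 CPM (0.92 ± 0.16, edgeR adjusted p = 0.000342), and it lies on chromosome 8, with its median of 0.46. Bcam, a laminin α5 receptor, rose (0.86 ± 0.22, edgeR adjusted p = 0.0113), but not without the experiment 2 library from 20000 cells (0.35, edgeR adjusted p = 0.477) or by DESeq2 (adjusted p = 0.0585). Itgb4, the β chain of the hemidesmosome integrin, fell (-1.21 ± 0.34, edgeR adjusted p = 0.0188), but did not pass by DESeq2 (adjusted p = 0.128). The Itgb4 change moved to -0.71 without the experiment 2 library from 10000 cells and to -2.02 without that from 20000 cells. Dag1, the dystroglycan gene and the receptor with the highest mean CPM of this list, did not pass (0.23 ± 0.14, edgeR adjusted p = 0.341).

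Genes of the visceral and parietal endoderm (24 genes, 13 tested) had 4 genes lower and 2 higher in experiment 2, with a median of -0.55, where 12.5% of all tested genes were called. Srgn and Apoa1 entered the test through experiment 1, as no fitted library of experiment 2 reached the filter, and Hnf4a reached it in 1. For these, as for genes of the other lists that reached the filter in 1 experiment, a difference was partly built into the selection. Srgn, a proteoglycan core protein expressed by parietal endoderm, had 3.64 and 7.56 CPM in experiment 1 and 0, 0.193 and 0.490 CPM in experiment 2 (-3.96 ± 0.61, edgeR's quasi-likelihood test, adjusted p = 7.84e-05). Amn, the amnionless protein that partners cubilin in an uptake receptor of visceral endoderm, had 12.1 and 9.64 CPM against 2.45, 2.26 and 3.08 CPM (-2.01 ± 0.33, edgeR adjusted p = 0.000136). Snai1, a zinc finger repressor present in parietal endoderm, had 8.30 and 7.96 CPM against 2.57, 2.26 and 1.71 CPM (-2.04 ± 0.37, edgeR adjusted p = 0.000565). In each of these 3 genes the experiments were separated in all 5 libraries, and the calls for Srgn, Amn and Snai1 held under every alternative that tested them. The size of the Srgn change moved with single libraries, to -4.78 without the experiment 2 library from 20000 cells and to -3.33 without the experiment 1 library from 20000 cells.

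The other 3 calls of that list were lost when certain single libraries were left out, and those of Sox18 and Lrp2 also by DESeq2 (adjusted p = 0.0970 and 0.0879). Sox18, a SoxF factor that is also an endothelial gene, fell in the fit (-2.12 ± 0.63, edgeR adjusted p = 0.0255), yet its 5000-cell value of 3.58 CPM lay between the 5.17 and 2.07 CPM of experiment 1. With that library in the fit the Sox18 call was lost (-0.98, edgeR adjusted p = 0.359), and also without the experiment 1 library from 10000 cells (edgeR adjusted p = 0.510) or without the experiment 2 library from 10000 or 20000 cells (edgeR adjusted p = 0.167 and 0.103). Lrp2, the megalin receptor whose uptake Dab2 serves, rose from 9.98 and 8.50 CPM to 12.0, 16.6 and 16.4 CPM (0.84 ± 0.23, edgeR adjusted p = 0.0160). Without the experiment 2 library from 10000 cells, without that from 20000 cells or without the experiment 1 library from 20000 cells, Lrp2 had an adjusted p by edgeR of 0.101, 0.0869 and 0.0518. Apoe, an apolipoprotein of visceral endoderm and many other cells, rose from 795 and 842 CPM to 931, 915 and 1256 CPM (0.41 ± 0.12, edgeR adjusted p = 0.0293). The Apoe call was lost without the experiment 2 library from 20000 cells (0.17, edgeR adjusted p = 0.410), without the experiment 1 library from 10000 cells (edgeR adjusted p = 0.165) and with the 5000-cell library added (edgeR adjusted p = 0.0578). Among genes of the list that were not called, Ttr had 4 and 7 counts in experiment 1 and 0 in all 3 libraries of experiment 2. Hnf4a had 34 and 24 counts against 0, 18 and 6 (-1.51 ± 0.80, edgeR adjusted p = 0.243). Of the 13 tested genes, 9 had a negative change. Plat (0.48 ± 1.06) and Cubn (0.02 ± 1.06), which were not called either, had a positive one.

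**Figure D3:**
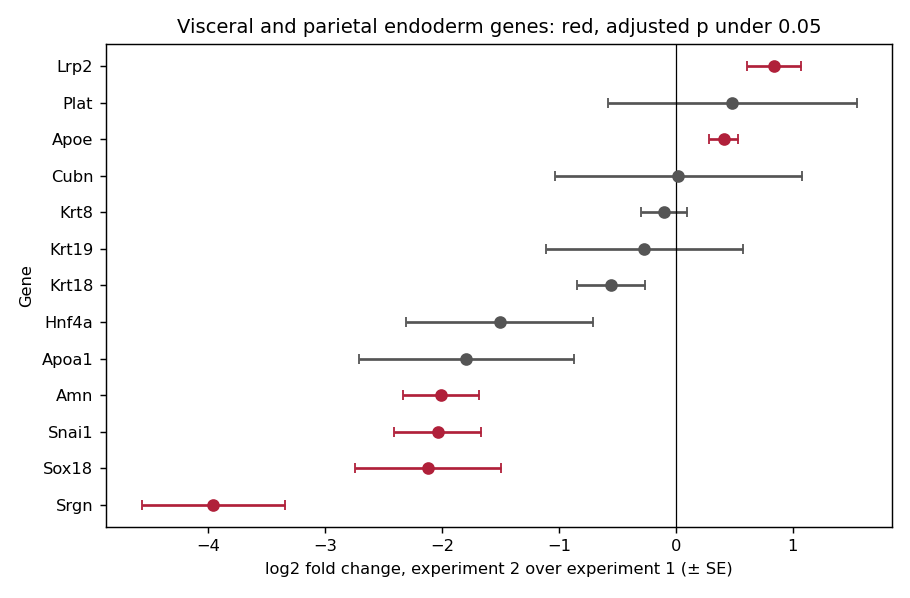
Log2 fold change of the 13 tested visceral and parietal endoderm genes, experiment 2 over experiment 1 (x axis; points with SE bars, 2 libraries per experiment), ordered by size. Red points have an edgeR adjusted p under 0.05, with Srgn, Sox18, Snai1 and Amn below 0 and Lrp2 and Apoe above 0.

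The signalling genes upstream of the lineage (FGF4 and PDGF ligands, their receptors and genes of the ERK cascade, 17 genes, 16 tested) had 1 gene higher and 1 lower, the same share as the 12.5% called among all tested genes, with a median of -0.04. Fgf4, the inducing ligand and the gene of this list with the highest mean CPM, averaged 146 CPM and did not pass (-0.11 ± 0.13, edgeR's quasi-likelihood test, adjusted p = 0.669). Pdgfb, a PDGF ligand chain that binds both PDGF receptors, fell from 21.8 and 19.3 CPM to 8.65, 5.87 and 6.07 CPM (-1.78 ± 0.23, edgeR adjusted p = 8.37e-06), on chromosome 15 with its median of -0.26. Fgfr1, an FGF receptor on chromosome 8, rose (0.67 ± 0.19, edgeR adjusted p = 0.0174), but not without the experiment 1 library from 10000 cells (0.43, edgeR adjusted p = 0.267), without the experiment 2 library from 10000 or 20000 cells (edgeR adjusted p = 0.0665 and 0.118) or by DESeq2 (adjusted p = 0.0726). Nanog, the epiblast factor that opposes Gata6, did not pass (-0.09 ± 0.12, edgeR adjusted p = 0.714).

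Markers of other cell types were read beside these values. Of 10 embryonic stem cell markers 2 were called higher and 1 lower, with a median of 0.06, and the share called among all tested genes, for this list and the next, was 12.5%. Fibroblast markers (15 genes) summed to 52.2 and 49.6 CPM in experiment 1 and to 18.2, 24.6 and 20.8 CPM in experiment 2, so they moved in the same direction as Dab2, Gata6 and Col4a1. Of these 15, 7 were tested and 2 were called, both lower, and Thy1, which embryonic stem cells can express too, had the highest mean of the list (29.2 and 33.9 CPM against 9.78, 6.77 and 7.05 CPM). Without Thy1 the sums were 23.0 and 15.8 CPM against 8.41, 17.9 and 13.8 CPM, which overlap. Of the 15 genes, 6 and 6 were at 0 in the libraries of experiment 1 and 7, 3 and 6 in those of experiment 2. Col3a1 and Lum were at 0 in all 5 libraries and Dcn had 2 counts in 1 library, whereas Col1a1 had 26 and 13 counts against 2, 14 and 10, and Col5a1 had 49 and 54 against 32, 61 and 74. The part of such cells in the changes of Dab2, Gata6 and Col4a1 was not tested. The summed levels of trophoblast (7.87 to 11.5 CPM), mesendoderm (2.11 to 5.03 CPM) and endothelial markers (8.51 to 13.4 CPM) overlapped between the experiments.

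The genes whose profile over the 5 libraries lay nearest to Dab2 were Magohb, an exon junction complex gene, and Sytl1, a synaptotagmin-like gene. Their root mean square distances were 0.144 and 0.145 on the log2(CPM + 1) scale, each profile centred on its mean, over 12523 genes searched. Magohb had 16.2 and 9.57 CPM in experiment 1 and 2.51, 3.93 and 2.15 CPM in experiment 2. Sytl1 had 8.52 and 5.49 CPM against 1.37, 1.42 and 0.441 CPM. Nearest to Col4a1 were Opn4, the melanopsin gene, at a distance of 0.0805 and Ppfia4, a liprin gene, at 0.0909. Opn4 had 3.13 and 2.07 CPM against 0.0597, 0.516 and 0.881 CPM, below Col4a1 in every library. At such low values the added 1 CPM shrinks the differences on this scale. Ppfia4 had 12.5 and 9.84 CPM against 2.57, 4.90 and 5.68 CPM. This likeness is a description over 5 libraries that share 2 days.

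The ATAC peaks were read at the transcription start sites of the count table and counted as promoter peaks within 1000 bp. Over the 5 low-input lists, 13 of 50 pairs of member and list held a promoter peak, against 38.1% of such pairs over all 24470 genes. In the 3 Omni-ATAC lists 11 of 30 pairs did, against 40.4%. The members with a promoter peak in at least 1 low-input list were 4 of 10 (Lama1, Lamb1, Col4a1 and Col4a2), against 52.6% of all genes, and with Omni-ATAC added they were 6 of 10, against 61.6%. Promoter peaks were commoner at expressed genes: at least 1 low-input list held one for 24.4% of genes under a mean of 1 CPM, 76.2% of genes at 1 to 10 CPM and 90.7% of genes at 10 CPM or more. In the Omni-ATAC list from 50000 cells, the longest, the shares were 34.2%, 85.8% and 95.7%.

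**Figure D4:**
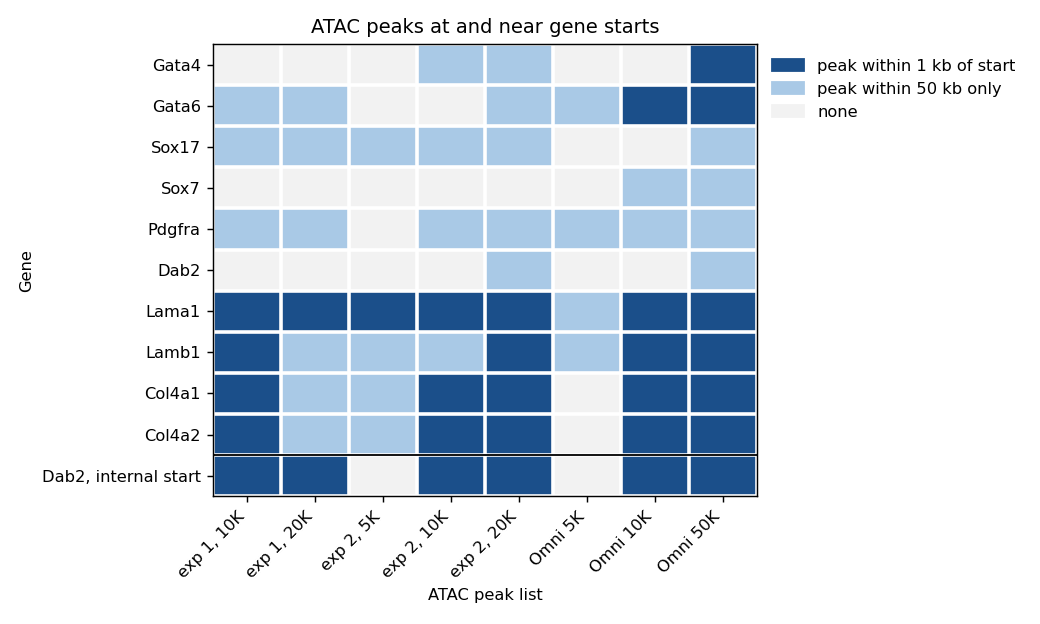
Promoter peaks of the 10 members and of the internal start of Dab2 (rows) in the 5 low-input and 3 Omni-ATAC lists (columns). Dark cells hold a peak within 1000 bp of the start and light cells one within 50000 bp only; for the internal start of Dab2 the promoter class alone is drawn. Lama1 is dark in 7 lists, whereas Sox17, Sox7, Pdgfra and the first start of Dab2 are dark in 0.

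By list, 4 and 1 members had a promoter peak in experiment 1 (10000 and 20000 cells), where 31.1% and 37.4% of all genes did. In experiment 2 (5000, 10000 and 20000 cells) 1, 3 and 4 members had one, against 31.1%, 40.5% and 50.3% of all genes. The Omni-ATAC lists from 5000, 10000 and 50000 cells gave 0, 5 and 6 members, against 18.6%, 41.5% and 61.1%. Within 50000 bp of a start, 7 and 7 members had a peak in experiment 1, against 67.4% and 74.8% of all genes, and 5, 7 and 9 had one in experiment 2, against 67.5%, 76.8% and 84.2%. The Omni-ATAC lists held a nearby peak for 4, 7 and 10 members, against 50.3%, 79.1% and 92.7%. With no peak heights in the lists, a member's accessibility could not be compared between experiments.

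Of the transcription factor genes, Gata6 (mm10 chr18:11052510-11085635, + strand) had a promoter peak in 0 low-input lists and in 2 Omni-ATAC lists. The peak was 19 bp wide with 10000 cells, and with 50000 cells it was 330 bp wide and covered the start. Gata4 (chr14:63198914-63245271, - strand) had 1 promoter peak, of 167 bp, in the Omni-ATAC list from 50000 cells. The RefSeq gene table places the Gata4 start 26441 bp away, where 0 of 8 lists had a promoter peak. With the starts of that table, 1 per gene, 5 of the 10 members had a promoter peak in any list. Sox17 (chr1:4490928-4497354, - strand) and Sox7 (chr14:63943706-63950732, + strand) had none in 8 lists. The nearest low-input peak to the Sox7 start lay 148280 to 443444 bp away. Sox17 instead had peaks inside its gene, in a merged region of 1633 bp (chr1:4492141-4493773), 3581 to 5213 bp downstream of its start. All 5 low-input lists and the longest Omni-ATAC list held a peak there. The width of the Sox17 region is that of the Omni-ATAC peak. Low-input peaks in it were 9 to 137 bp wide at differing positions, and the region is not in the unified list deposited for the series. For Gata6 a region of 204 bp at chr18:11040034-11040237, 12273 bp or more upstream of the start and outside any gene of the count table, held a peak in 6 of 8 lists. Both experiment 1 lists had the Gata6 region and 1 of the 3 lists of experiment 2, the longest, had it. In each of these low-input lists the peak was 9 bp wide, the least width in the lists. The peaks of experiment 1 did not overlap each other. The width of 204 bp is that of the peak in the Omni-ATAC list from 50000 cells, and the Gata6 region is not in the unified list.

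Pdgfra (chr5:75152291-75198204, + strand) had no promoter peak in 8 lists, but a region of 138 bp inside the gene (chr5:75156301-75156438), 4010 to 4147 bp from its start, held a peak in 4 low-input and 2 Omni-ATAC lists. The region is also in the unified list that was deposited for the series.

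Lama1 (chr17:67697265-67822645, + strand) was the member with promoter peaks in all 5 low-input lists, and it lacked one in the Omni-ATAC list from 5000 cells, the shortest. Its promoter peaks next to the start were 77 to 362 bp wide in the low-input lists, and with the Omni-ATAC peaks they merged into chr17:67696860-67697284, from position -405 to 19 relative to the start. A further region of 175 bp inside Lama1 (chr17:67741362-67741536), 44097 bp downstream of the start, was in all 8 lists.

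Lamb1 (chr12:31265294-31329639, + strand) had promoter peaks in 2 low-input and 2 Omni-ATAC lists. In the experiment 2 list from 20000 cells its peak was 84 bp wide and lay at positions -182 to -99 relative to the start, the capitals of the sequence above being its first 34 bases. In the experiment 1 list from 10000 cells the peak was 9 bp wide, the least width in the lists. The most constant peak near Lamb1 lay elsewhere, at chr12:31225250-31225818 (569 bp), 39476 bp or more upstream and outside any gene of the count table, and it was in all 8 lists.

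Col4a1 (chr8:11198423-11312826, - strand) and Col4a2 (chr8:11312805-11449287, + strand) share 1 promoter, so their peaks are the same peaks counted for both. The shared promoter held a peak in 3 low-input and 2 Omni-ATAC lists. In the experiment 1 list from 10000 cells and in the experiment 2 list from 10000 cells it was 9 bp wide each, at different positions, and in the Omni-ATAC list from 50000 cells a peak of 579 bp spanned both starts. A region of 228 bp inside Col4a1 (chr8:11279291-11279518), 33308 bp downstream of its start, held a peak in 4 low-input and 2 Omni-ATAC lists.

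**Figure D5:**
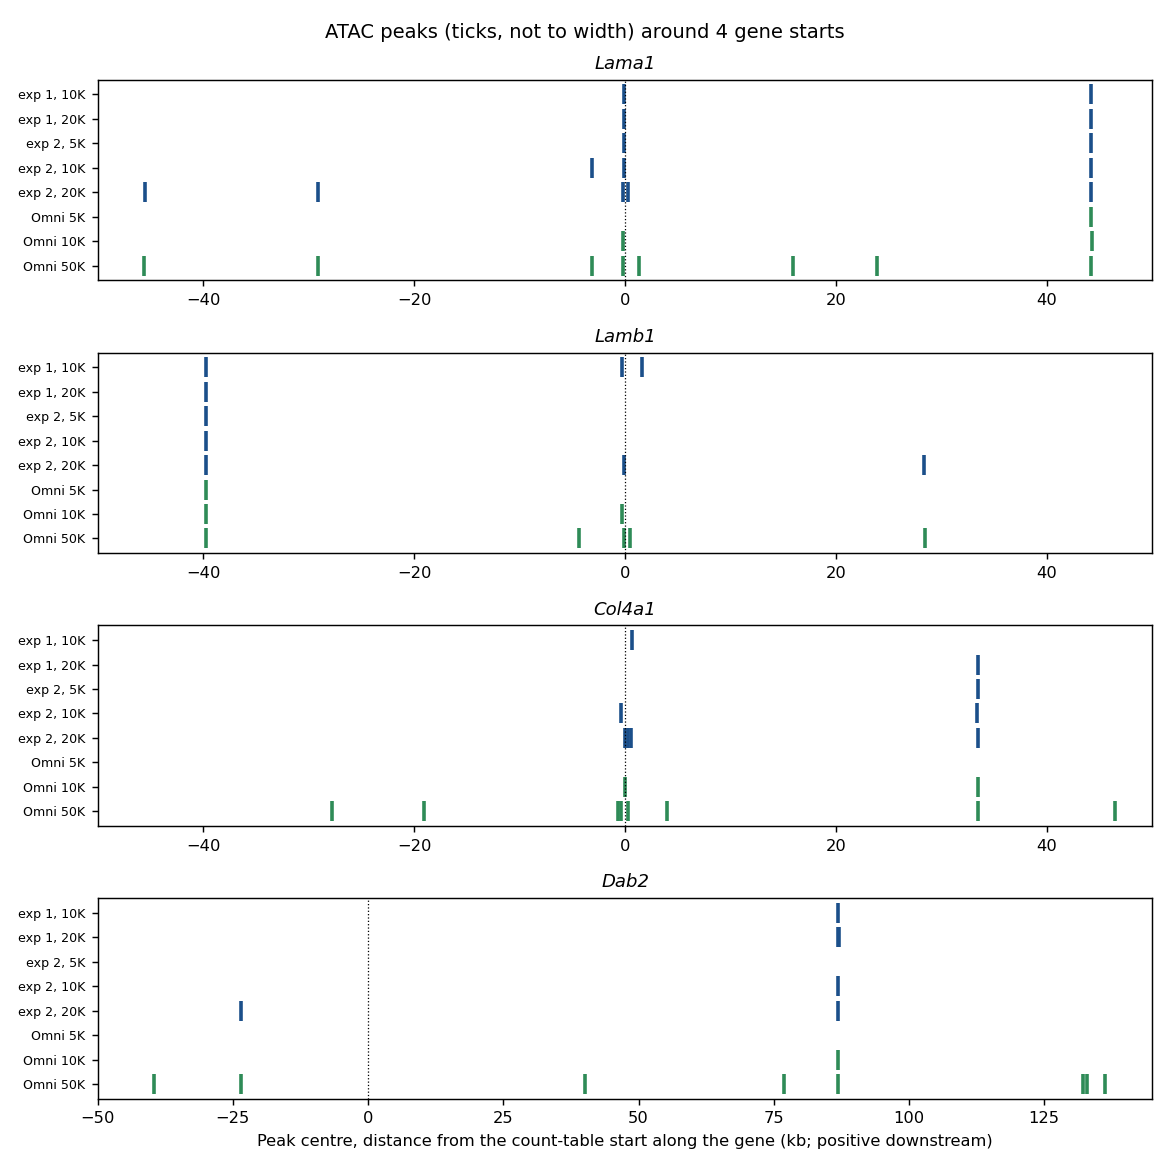
Peaks around Lama1, Lamb1, Col4a1 and Dab2 in the 8 ATAC lists, each tick 1 peak at its distance from the start of the count table (x axis, kb; ticks are not to width), low-input lists in blue and Omni-ATAC lists in green. Lama1 has ticks at 0 and 44 kb in most lists, Lamb1 a column near 40 kb upstream, and Dab2 a column 87 kb downstream of its first start.

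Dab2 (chr15:6299789-6440712, + strand) had no promoter peak in 8 lists at the start of the count table, which is the first of its 2 RefSeq starts. The internal start, at position 6386748 and 86959 bp downstream of the first, had a peak within 1000 bp in 6 of 8 lists. It was absent from the 2 lists made from 5000 cells. In experiment 1 the peak next to the internal start was 9 bp wide with 10000 cells and 97 bp wide with 20000 cells. In experiment 2 it was 74 and 373 bp wide at the same cell numbers. These lists differ in length and hold no heights, so the widths were not compared between the experiments. The Omni-ATAC peaks there were 110 bp wide with 10000 cells and 478 bp wide with 50000 cells. Of all 32817 RefSeq starts, 25.0% had a peak within 1000 bp in at least 6 of the 8 lists. The share was 53.8% of the starts with at least 10 CpG in the 250 bases before them, to which the internal Dab2 start with its 17 CpG belongs, and 7.58% of the starts with fewer, to which the first start with its 2 CpG belongs. The counts are per gene and do not say which Dab2 start the RNA came from.

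The sequences printed above were searched on both strands for 5 short motifs. They were GATAA, the core that factors such as Gata4 and Gata6 bind, and ACAAT, a core of sites of Sox factors. The others were GGGCGG, bound by Sp1 and related factors, then TATAAA, a form of the box near which transcription starts, and finally CCAAT, bound by the factor NF-Y. The motif of Sox factors and that of NF-Y share their last 4 letters, and the searched window was the 250 bases before each start. The stretch before the first Dab2 start held GATAA at positions -178 to -174 relative to the start (22.6% of RefSeq promoters hold it), and that before the internal start held 0 of the 5 motifs. Before the Lamb1 start lay CCAAT (positions -187 to -183, in 33.8% of promoters) and GGGCGG on the opposite strand at positions -84 to -79 and -75 to -70 (in 32.7%), the latter pair past the end of the printed stretch. In the Col4a1 and Col4a2 windows CCAAT was found in both and GGGCGG in that of Col4a2. These are matches of letters and show no binding.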

How the data were processed

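The authors deposited a table of raw counts per gene for 5 mRNA libraries of E14 cells, with mm10 coordinates per the file headers. For ATAC they deposited intervals without heights, as 8 lists of single libraries and 1 unified list. Cutadapt, Bowtie2 2.1.0, SAMtools 1.3.1, Picard, bedtools 2.24.0, MACS2 2.1.1, STAR 2.5, featureCounts and Subread 1.5.0-p1 are named per the submitters' processing notes, without roles. The use of strand, the handling of reads that match several places and the peak threshold are not given in the sources used here. The shortest peaks are 9 bp wide and make up 24.4% to 59.2% of a list.

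Groups came from the sample titles. CPM and all tests were computed here: edgeR 4.0.16 in R 4.3.3 (TMM, filterByExpr, glmQLFit, glmQLFTest, Benjamini-Hochberg over all 12523 tested genes, threshold 0.05) on the 10000-cell and 20000-cell libraries of both experiments, without a block. The 5000-cell library has no counterpart in experiment 1 and was left out of the fit. The biological coefficient of variation was 17.1%. Peaks and figures were handled in Python 3.11.15 with pandas 2.3.3, numpy 2.4.6, matplotlib 3.10.9 and scipy 1.17.1. A peak within 1000 bp of the start in the count table was a promoter peak, and one within 50000 bp was a nearby peak. Promoter sequences are from RefSeq (GRCm38.p6). No genome sequence or exon annotation was used, so CPM are not corrected for gene length, and an order of genes by CPM is not an order of levels per length.

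Whether cell number pairs the libraries was checked: the deviations of the 10000-cell libraries from their group means correlated with r = -0.0034 across 12523 genes, so the numbers were not taken as pairs. Alternatives were DESeq2 1.42.0, RLE size factors in edgeR, scaling by library size alone, no low-count filter, a mean of at least 10 CPM, the 5000-cell library added, a replicate block, a log2 fold change of at least 1, subtraction of the chromosome median, and each library left out. For peaks they were windows of 500 and 2500 bp, peaks of at least 50 bp, the 9097 widest peaks of each list, and RefSeq starts. Any RefSeq start of a gene was added after seeing the data.

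The members and the other gene lists were chosen with earlier results of these data known. Named genes were all members. From each other list they were every called gene, or the 6 with the largest change if more were called, and the gene with the highest mean CPM. They also were the 2 nearest profiles of each called member with a mean of at least 1 CPM. Regions named are those in at least 6 of the 8 lists. Lamc1, Nanog, Ttr, Hnf4a, Gata6os, Apoa1, Col3a1, Lum, Dcn, Col1a1 and Col5a1 were named for their role or overlap, after their values were seen. Plat and Cubn were named for the sign of their change, also after their values were seen.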

Additional observations from a re-analysis of the deposited data

How the results depend on the processing

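No member changed sign under any alternative run. The number of genes called between experiments (1567) was 952 by DESeq2 and 612 with a log2 fold change of at least 1, and it ranged from 803 to 1817 when 1 library was left out. Of the members, 3 were called, and 2 to 5 when 1 library was left out. With a mean of at least 10 CPM, 1 was called, since 2 were then tested. With cell number as a replicate block 1765 genes and 4 members were called, the added member being Lamb1, and no other member's call changed. Low-input promoter peaks of members (13 of 50 pairs) came to 8 with peaks of at least 50 bp and to 5 among the widest peaks of each list, and leaving out 1 list gave 9 to 12. Omni-ATAC promoter peaks (11 of 30) came to 7 and 2 under the same settings. With the start of the RefSeq gene table they came to 10, without the Gata4 peak. With any RefSeq start the pairs were 17 and 13, the additions being the internal start of Dab2. Without the filter on low counts the median log2 fold change of all genes was 0.12. Relative to their chromosome's median, Col4a1 changed by -1.75 and Col4a2 by -1.58. The cause of each difference was not tested. Depth limits Gata4, Sox17, Sox7, Gata6 and Pdgfra, each with libraries at or under 5 counts, and ATAC depth is unknown.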

Other observations

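All 10 embryonic stem cell markers were tested, and 3 were called, where 12.5% of all tested genes were called. Utf1, a chromatin-bound factor of pluripotent cells, was lower in experiment 2 (log2 fold change -0.57 ± 0.11, edgeR's quasi-likelihood test, adjusted p = 0.00145). Klf4 was called higher (0.42 ± 0.13, edgeR adjusted p = 0.0381), as was Zfp42, which lies on chromosome 8 (0.38 ± 0.11, adjusted p = 0.0282 by edgeR). Both calls were lost whenever 1 of the 4 fitted libraries was left out, and that of Klf4 also with the 5000-cell library added (edgeR adjusted p = 0.0802) and by DESeq2 (adjusted p = 0.0638). Dppa5a, with the highest mean of the list at 1573 CPM, had a change of 0.02 (edgeR adjusted p = 0.953).

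Thy1, a surface glycoprotein, fell in experiment 2 (-2.19 ± 0.21, edgeR adjusted p = 6.75e-08) and was called under every alternative that tested it. Loxl1, a matrix cross-linking enzyme, had 12.1 and 7.96 CPM in experiment 1 and 3.76, 4.97 and 5.14 CPM in experiment 2 (-0.98 ± 0.30, edgeR adjusted p = 0.0315). The Loxl1 call was lost without the experiment 1 library from 10000 cells (edgeR adjusted p = 0.280) and without the experiment 2 library from 10000 or 20000 cells (edgeR adjusted p = 0.170 and 0.140), and by DESeq2 (adjusted p = 0.190).

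Of 10 trophoblast markers 3 were tested, where 6.76% of all tested genes were called lower. Ascl2 was called lower (-1.44 ± 0.46, edgeR adjusted p = 0.0409), a call lost with the 5000-cell library added (edgeR adjusted p = 0.219) and without the experiment 1 library from 20000 cells or the experiment 2 library from 10000 or 20000 cells (edgeR adjusted p = 0.191, 0.213 and 0.147), and by DESeq2 (adjusted p = 0.189). Tfap2c, the trophoblast marker with the highest mean, did not pass (0.95 ± 0.42, edgeR adjusted p = 0.144). Eomes, the highest mesendoderm marker, had a change of 1.92 ± 0.74 (edgeR adjusted p = 0.0928). Pecam1, the highest endothelial marker, had a change of 0.00 (edgeR adjusted p = 0.996).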
